A study of Mus musculus with 12 samples.

Results

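The transporters described here are 10 genes through which hepatocytes take up, secrete and return bile acids and other organic anions. They were chosen as the rows of the deposited count table whose Ensembl identifiers map to Slc10a1, Slco1a1, Slco1a4, Slco1b2, Slc22a7, Abcb11, Abcb4, Abcc2, Abcc3 and Abcc4, and all 10 were found among the 55414 genes of the table. RNAseq of whole liver covered 12 female C57BL/6J mice aged 8 to 12 weeks, in 4 groups of 3. Mice received an i.p. injection of NaCl (0.9%) or of 300 mg/kg FeSO4, which overloads the animal with iron, and 6 h later an i.p. injection of PBS or of 10 mg/kg dexamethasone (DEX, a synthetic glucocorticoid). Livers were taken 2 h after the second and 8 h after the first injection, and the groups are named NaCl/PBS, NaCl/DEX, FeSO4/PBS and FeSO4/DEX. All mice were of the same strain and sex, the labels name no engineered allele, and the model is a single acute dose of iron.

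Bile acids are made from cholesterol in hepatocytes, are pumped across the canalicular membrane into bile, and return from the gut in portal blood, from which hepatocytes take them up again across the sinusoidal membrane. Uptake runs through Slc10a1 (NTCP), which carries conjugated bile acids together with sodium, and through sodium-independent OATPs (Slco1a1, Slco1a4 and Slco1b2) and the organic anion transporter OAT2 (Slc22a7). Secretion into bile runs through Abcb11 (BSEP), the bile salt export pump, Abcb4 (MDR2), which moves phosphatidylcholine into bile, and Abcc2 (MRP2), which exports bilirubin glucuronides and other conjugates. Abcc3 (MRP3) and Abcc4 (MRP4) export anions back across the sinusoidal membrane and are known as a relief route in cholestasis, when Slc10a1 and the OATPs typically fall.

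Between 16335651 and 23827340 reads were counted per library, with a median of 19602514. Levels are normalized counts, that is counts scaled with edgeR's TMM factors to a common library size, and changes are log2 fold changes (LFC, given ± SE) from 1 edgeR quasi-likelihood model of the 4 groups. A gene was called at a Benjamini-Hochberg adjusted p (edgeR FDR) of 0.05 or less over the 13857 genes that passed the filter on low counts, which all 10 transporters did. An exact two-sided permutation test of 1 gene cannot go below p = 0.1 with 3 mice on each side, so that the p-values rest on the spread shared across genes and groups. Mouse 1 of the FeSO4/PBS group stood apart from the other 2 of its group over all genes, with a chi-square per gene of 64.9 and 81.4 against 22.0 between mice 2 and 3, and between 16.8 and 33.9 within the other groups. The FeSO4 effects without DEX of the 10 transporters are given with and without this mouse. In all 12 livers the hepatocyte markers were abundant (Alb between 1623261 and 2248616 counts), whereas 5 of 6 pancreatic acinar markers had 0 counts. After FeSO4 in the mice without DEX, 27.2% of all tested genes were called higher and 27.3% lower. Of the hepatocyte markers 3 of 7 were called higher and 0 lower. Kupffer cell markers were called lower in 7 of 7 and tested neutrophil markers higher in 5 of 5. Of the other lists, 2 of 6 tested cholangiocyte markers were called higher and 1 lower, 2 of 6 endothelial markers higher and 2 lower, 2 of 6 stellate cell markers higher and 1 lower, 0 of 5 lymphocyte markers higher and 1 lower, and 2 of 3 red cell markers higher and 0 lower. None of the 5 kidney tubule markers was abundant enough to be tested, and the 1 tested acinar marker (Cela1) was not called. The marker calls rest on the TMM scaling and were not repeated with library size alone.

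In NaCl/PBS livers, Slc10a1 was the most abundant of the 10 transcripts per length and Abcc4 the least. Per kb of the canonical transcript, Slc10a1 had 8885 ± 823 normalized counts (SD, n = 3), Slco1b2 had 5151 ± 493 and Abcb11 had 2267 ± 516. Abcc2 followed with 1653 ± 235, Abcb4 with 1024 ± 25.5, Slco1a4 with 765 ± 138 and Abcc3 with 686 ± 92.8. Slco1a1 had 563 ± 225, Slc22a7 had 327 ± 147 and Abcc4 had 17.3 ± 1.04. Neighbours whose mice overlapped in this order were Abcb11 and Abcc2, Slco1a4 and Abcc3, Abcc3 and Slco1a1, and Slco1a1 and Slc22a7. The order depended in part on the length used. With the length of all annotated exons, Slco1b2 (3638 normalized counts per kb) overlapped Slc10a1 (4010), and Abcb4, whose annotated exons span 13532 bases against 4585 in the canonical transcript, moved from position 5 to position 8. In all 4 groups Slc10a1 stood in position 1 and Abcc4 in position 10 with both lengths.

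**Figure D1:**
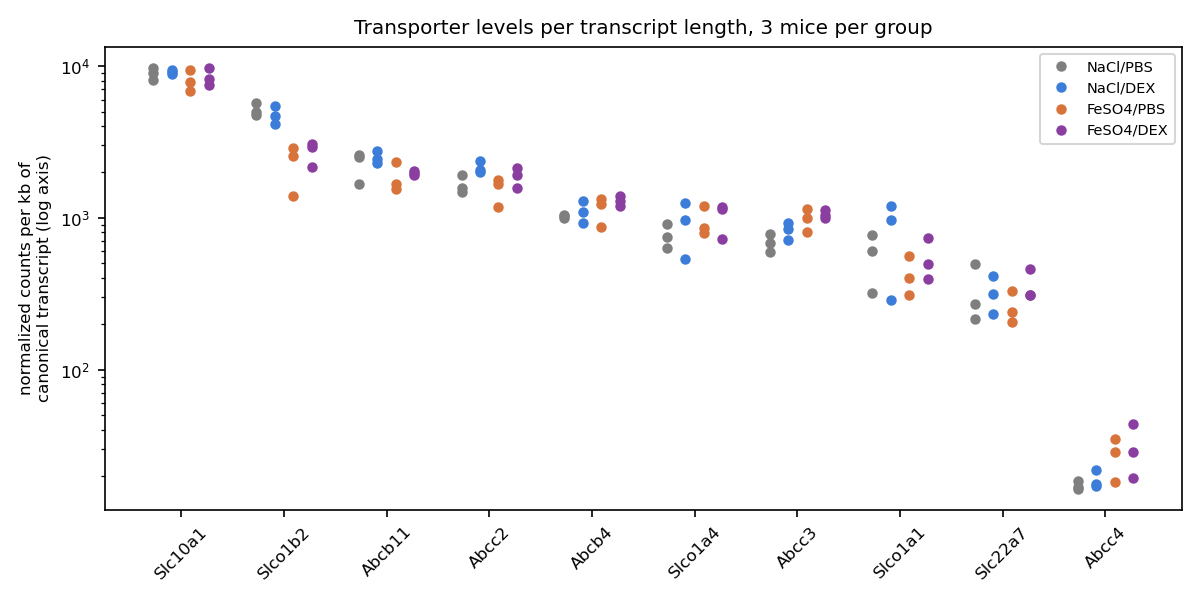
Normalized counts per kb of canonical transcript (log axis) of the 10 transporters, ordered by their mean in NaCl/PBS livers, with 1 point per mouse and 3 mice in each of the 4 groups. Slc10a1 lies highest and Abcc4 lowest in every group, and the FeSO4 mice of Slco1b2 lie below the NaCl mice.

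The sequences around the starts of 4 transporters are shown, those called in the FeSO4 comparison without DEX (Slco1b2 and Abcc3) and those that held a searched motif (Slco1b2, Slc10a1 and Abcc2), so that the letters next to each measured level can be read. They were read from GRCm39 at 250 bases before and 50 bases from the start of the canonical transcript, on the strand of the gene, in lower case with the matched motif in capitals. Both strands of the same window of 21770 protein-coding genes were searched for 5 motifs, and no matched motif overlapped another.

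Slco1b2: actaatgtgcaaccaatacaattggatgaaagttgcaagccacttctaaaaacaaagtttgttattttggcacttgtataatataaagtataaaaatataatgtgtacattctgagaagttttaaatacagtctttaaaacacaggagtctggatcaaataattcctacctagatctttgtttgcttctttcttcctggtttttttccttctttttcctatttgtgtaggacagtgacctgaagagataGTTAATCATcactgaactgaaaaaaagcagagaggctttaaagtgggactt
Abcc3: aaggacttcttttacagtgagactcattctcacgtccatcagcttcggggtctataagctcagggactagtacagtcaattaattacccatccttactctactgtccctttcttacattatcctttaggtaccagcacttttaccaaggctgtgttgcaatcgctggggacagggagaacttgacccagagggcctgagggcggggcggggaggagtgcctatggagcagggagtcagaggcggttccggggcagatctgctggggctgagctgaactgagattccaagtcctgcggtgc
Slc10a1: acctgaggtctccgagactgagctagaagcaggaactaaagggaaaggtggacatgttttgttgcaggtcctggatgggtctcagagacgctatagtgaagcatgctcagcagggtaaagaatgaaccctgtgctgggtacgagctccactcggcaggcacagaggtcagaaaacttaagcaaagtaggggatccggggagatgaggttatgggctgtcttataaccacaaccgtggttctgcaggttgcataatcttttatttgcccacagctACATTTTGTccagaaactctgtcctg
Abcc2: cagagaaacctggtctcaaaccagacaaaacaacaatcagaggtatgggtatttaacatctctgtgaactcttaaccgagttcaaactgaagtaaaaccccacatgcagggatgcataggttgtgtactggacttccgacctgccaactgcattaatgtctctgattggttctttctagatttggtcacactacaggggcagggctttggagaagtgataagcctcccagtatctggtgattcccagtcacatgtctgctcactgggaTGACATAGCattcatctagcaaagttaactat
The capitals in Slco1b2 (chr6:141574929-141575228, plus strand) mark an HNF1 element, GTTAATNAT, that lies at positions -1 to 8 from the start and is found in 0.818% of all windows searched. Those in Slc10a1 (chr12:81014804-81015103, minus strand) mark a glucocorticoid response element core, ACANNNTGT, at positions 25 to 33, found in 5.95% of windows. Those in Abcc2 (chr19:43770381-43770680, plus strand) mark an antioxidant response element core of NRF2, TGACNNNGC, at positions 19 to 27, found in 12.5% of windows. The window of Abcc3 (chr11:94283753-94284052, minus strand) held none of the 5. The FXR inverted repeat core GTCANTGAC (0.395% of windows) and the HNF4 element CAAAGTCCA (0.450%) were in none of the 10. These are matches of letters in a short window, and a window without a match says nothing about the factor.

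The FeSO4 effect was taken from the FeSO4/PBS and the NaCl/PBS mice and asks which transporters respond to iron without DEX. Slco1b2, the OATP1B2 that takes up bile acids, bilirubin and many drugs, fell, and Abcc3, the sinusoidal exporter, rose. Of the 10 transporters 1 was called lower, where 27.3% of all tested genes were, and 1 higher, where 27.2% were. The groups did not overlap for 2 of the 10, Slco1b2 and Abcc3, against 60.0% of all tested genes. The median size of the LFC was 0.32 over the 10 transporters and 0.575 over all tested genes, both without sign, and the median signed LFC was -0.13 and -0.015, respectively. The LFCs of 8 of the 10 lay within the middle 50% of all tested genes, between -0.637 and 0.525, and Slco1b2 and Abcc4 lay beyond it.

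Slco1b2 (ENSMUSG00000030236, chr6:141575179-141633546, plus strand, GRCm39) had 25950, 21700 and 22590 normalized counts in NaCl/PBS livers, against 6332, 13030 and 11650 in FeSO4/PBS livers. Every FeSO4/PBS liver was lower than every NaCl/PBS liver, and mouse 1 of the FeSO4/PBS group was the lowest of the 12. The LFC was -1.18 ± 0.22 (SE), a 2.27-fold lower level with a 95% interval of the LFC from -1.66 to -0.70 (edgeR FDR 0.000525). Without mouse 1 of the FeSO4/PBS group the LFC was -0.92 (edgeR FDR 0.000422). The level per length of Slco1b2 relative to Slc10a1 lay between 0.51 and 0.71 in NaCl/PBS livers and between 0.18 and 0.38 in FeSO4/PBS livers. In a whole liver, fewer cells of a type and less RNA per cell cannot be told apart. The summed hepatocyte markers, most of it Alb, ranged from 2137000 to 2509000 normalized counts in NaCl/PBS livers and from 2694000 to 3100000 in FeSO4/PBS livers. These sums depend on the scaling. The TMM factors were 1.14 to 1.16 in NaCl/PBS and 0.90 to 0.95 in FeSO4/PBS libraries, and a lower factor gives higher normalized counts. The sums are thus no measure of a rise in hepatocyte RNA, and their part in the fall of Slco1b2 was not tested.

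Abcc3 (ENSMUSG00000020865, chr11:94233874-94283823, minus strand) had 4107, 3133 and 3572 normalized counts in NaCl/PBS livers, against 4253, 5234 and 5956 in FeSO4/PBS livers. Every FeSO4/PBS liver was higher than every NaCl/PBS liver, mouse 1 by the smallest margin. The LFC was 0.51 ± 0.15 (SE), a 1.43-fold higher level with a 95% interval from 0.20 to 0.83 (edgeR FDR 0.00846). Without mouse 1 of the FeSO4/PBS group the LFC was 0.64 (edgeR FDR 0.00145). This call depended on the scaling: with library size alone, under which the median LFC of all genes moved from -0.015 to -0.34, the LFC of Abcc3 was 0.20 (edgeR FDR 0.265). MRP3 is also made by bile duct cells, whose summed markers moved in the same direction, from between 800 and 919 normalized counts in NaCl/PBS livers to between 1199 and 1493 in FeSO4/PBS livers. Of these 8 markers, Krt19 had 8 to 29 counts, Cftr 0 to 9 and Cldn4 0 to 6 over the 12 libraries, and their part in the rise of Abcc3 was not tested.

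Abcc4 (ENSMUSG00000032849, chr14:118720103-118943924, minus strand), the other sinusoidal exporter, had 101, 99.1 and 111 normalized counts in NaCl/PBS livers, against 110, 212 and 172 in FeSO4/PBS livers. FeSO4/PBS mouse 1 lay just under the highest NaCl/PBS mouse and the other 2 lay above it. The LFC was 0.66 ± 0.275 (SE) with a 95% interval from 0.07 to 1.25, and it was not called at the adjusted level (edgeR FDR 0.0549). Without mouse 1 of the FeSO4/PBS group the LFC was 0.89 and the gene was called (edgeR FDR 0.0118). Over all fits that left out 1 mouse, the LFC ranged from 0.44 to 0.89 and the edgeR FDR from 0.0118 to 0.233. Over the other alternatives the LFC ranged from 0.35 to 0.69, with adjusted p (edgeR or DESeq2) from 0.00688 to 0.323.

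The other uptake transporters were not called. Slc10a1 (ENSMUSG00000021135, chr12:80996372-81015479, minus strand) had 12090, 13490 and 14560 normalized counts in NaCl/PBS livers, against 11720, 14110 and 10220 in FeSO4/PBS livers. Its groups overlapped, and the interval of the LFC from -0.45 to 0.14 held no fall as large as that of Slco1b2 (LFC -0.155 ± 0.14, edgeR FDR 0.358). With library size alone it was called lower (LFC -0.48, edgeR FDR 0.00836), and without FeSO4/PBS mouse 1 the LFC was -0.13. Slco1a1 (ENSMUSG00000041698, chr6:141853007-141892690, minus strand), whose OATP1A1 takes up bile acids and steroid sulphates, had 1276, 2382 and 3043 normalized counts in NaCl/PBS livers, against 1223, 1581 and 2205 in FeSO4/PBS livers. The mice of each group spread widely and overlapped, and the interval from -1.34 to 0.50 leaves large changes possible (LFC -0.42 ± 0.43, edgeR FDR 0.425, and -0.23 without FeSO4/PBS mouse 1). Slco1a4 (ENSMUSG00000030237, chr6:141751165-141802036, minus strand), whose OATP1A4 also carries cardiac glycosides, had 3608, 2521 and 2965 normalized counts in NaCl/PBS livers, against 3378, 4721 and 3163 in FeSO4/PBS livers. Only mouse 2 of the FeSO4/PBS group lay above all NaCl/PBS mice (LFC 0.31 ± 0.27, interval -0.27 to 0.88, edgeR FDR 0.35, and 0.38 without FeSO4/PBS mouse 1). Slc22a7 (ENSMUSG00000067144, chr17:46743044-46749407, minus strand), an organic anion transporter, had 565, 450 and 1025 normalized counts in NaCl/PBS livers, against 689, 499 and 426 in FeSO4/PBS livers. The NaCl/PBS group rested on 1 high mouse, mouse 3, and without it the sign of the LFC turned from -0.335 ± 0.29 to 0.08 (edgeR FDR with all mice 0.348). Without FeSO4/PBS mouse 1 it was -0.55 (edgeR FDR 0.161). Slco1a1, Slco1a4 and Slco1b2 lie within the same stretch of chromosome 6, and of these neighbours Slco1b2 was the member called.

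The 3 canalicular exporters were not called either. Abcb11 (ENSMUSG00000027048, chr2:69068544-69173315, minus strand) had 13440, 8924 and 13900 normalized counts in NaCl/PBS livers, against 8221, 12480 and 8855 in FeSO4/PBS livers. In each group 1 mouse, mouse 2, stood apart from the other 2 in the direction of the other group. The LFC was -0.295 ± 0.18 (SE, interval -0.68 to 0.09, edgeR FDR 0.179), and without mouse 2 of either group the gene was called lower, with LFCs of -0.47 (edgeR FDR 0.0304) and -0.50 (edgeR FDR 0.0287). It was also called lower with library size alone (LFC -0.61, edgeR FDR 0.0104), whereas without FeSO4/PBS mouse 1 the LFC was -0.175 (edgeR FDR 0.451). Abcb4 (ENSMUSG00000042476, chr5:8943604-9011999, plus strand) had 4805, 4705 and 4572 normalized counts in NaCl/PBS livers, against 3966, 5668 and 6104 in FeSO4/PBS livers. The NaCl/PBS mice were close together, and the FeSO4/PBS mice lay on both sides of them (LFC 0.16 ± 0.155 (SE), interval -0.17 to 0.49, edgeR FDR 0.403). Without FeSO4/PBS mouse 1 the LFC was 0.33 (edgeR FDR 0.0507). Abcc2 (ENSMUSG00000025194, chr19:43770631-43829179, plus strand) had 15410, 11840 and 12550 normalized counts in NaCl/PBS livers, against 9390, 14260 and 13310 in FeSO4/PBS livers. FeSO4/PBS mouse 1 was below and the other 2 within the range of the NaCl/PBS mice (LFC -0.11 ± 0.17 (SE), interval -0.47 to 0.25, edgeR FDR 0.611). Without that mouse the LFC was 0.06 (edgeR FDR 0.751), and with library size alone it was -0.42 and called (edgeR FDR 0.0443). FeSO4/PBS mouse 1, the mouse that stood apart over all genes, was the lowest of its group for Slco1b2, Slco1a1, Abcb11, Abcb4, Abcc2, Abcc3 and Abcc4, the highest for Slc22a7, and in between for Slc10a1 and Slco1a4.

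**Figure D2:**
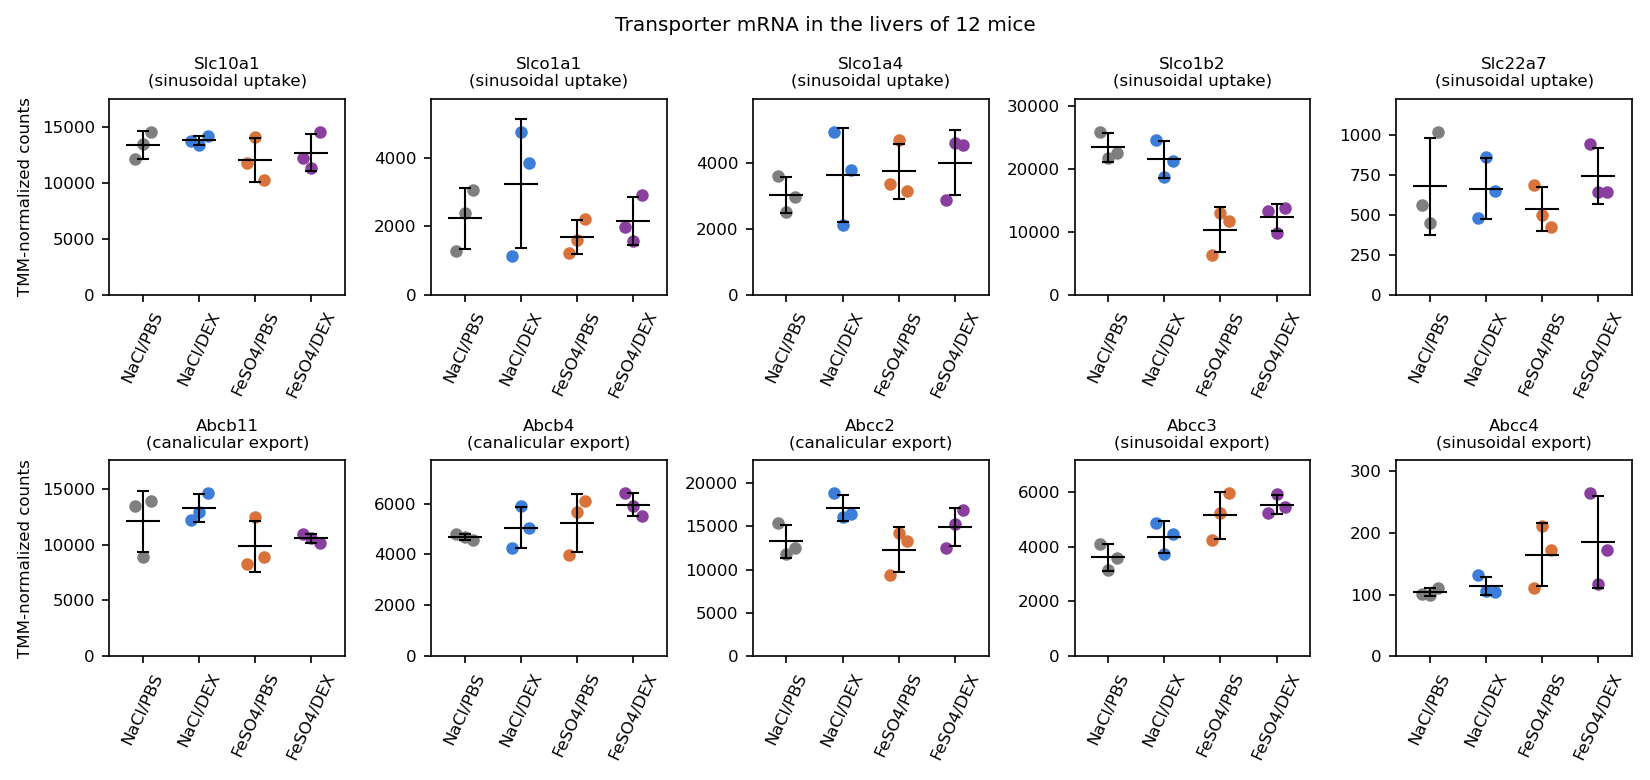
TMM-normalized counts (linear axes from 0) of the 10 transporters in the 12 mice, with 1 point per mouse and the mean ± SD of the 3 mice of each group as black bars. Slco1b2 lies at 18760 or more in every NaCl mouse and at 13840 or less in every FeSO4 mouse, whereas the groups of Slc10a1 overlap.

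Summed per length by role, the 5 uptake transporters together had 15180 to 16650 normalized counts per kb in NaCl/PBS livers, against 10670 to 14070 in FeSO4/PBS livers, without overlap. Much of this was Slco1b2: without it the sums were 9533 to 11677 and 8345 to 11198, and the groups overlapped. The 3 canalicular exporters together had 4176 to 5488 and 3577 to 5354, with overlap. The 2 sinusoidal exporters, of which Abcc3 made up nearly all, had 613 to 799 and 828 to 1163. The ratio of Slco1b2 to Abcc3, both per length, was 7.30 to 8.00 in NaCl/PBS livers, against 1.72 to 2.88 in FeSO4/PBS livers, which says no more than that the 2 called genes moved apart.

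The FeSO4 effect was also taken among the mice given DEX (FeSO4/DEX against NaCl/DEX), which are other animals. Slco1b2 was lower in these mice too. It had 24630, 18760 and 21210 normalized counts in NaCl/DEX livers, against 13260, 9799 and 13840 in FeSO4/DEX livers, again with all FeSO4 mice below all NaCl mice. The LFC was -0.81 ± 0.22 (SE), a 1.75-fold lower level (interval -1.28 to -0.33, edgeR FDR 0.00905). Of the 10 transporters 1 was called lower (20.9% of all tested genes) and 1 higher (22.4%), and for 3 of the 10, Slco1b2, Abcc3 and Abcb11, the groups did not overlap (55.9% of all tested genes). The one called higher was Abcc4, with 131, 106 and 104 normalized counts in NaCl/DEX livers, against 265, 117 and 172 in FeSO4/DEX livers. Its groups overlapped, and the LFC of 0.71 ± 0.28 (SE, interval 0.12 to 1.30) was called by a narrow margin (edgeR FDR 0.0499). Without mouse 1 of the FeSO4/DEX group, the highest of the 12, the LFC was 0.35 (edgeR FDR 0.311). Of the 6 fits that each left out 1 mouse of this comparison, only the one without FeSO4/DEX mouse 2 kept the call (edgeR FDR 0.0143), and with the replicate number as a block the call was lost (LFC 0.70, edgeR FDR 0.0763).

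Abcc3 had 4863, 3721 and 4442 normalized counts in NaCl/DEX livers, against 5233, 5912 and 5449 in FeSO4/DEX livers. Every FeSO4/DEX liver was higher than every NaCl/DEX liver, yet the LFC of 0.35 ± 0.15 (SE, interval 0.04 to 0.66) did not pass the adjusted threshold (edgeR FDR 0.0667). With the libraries of this comparison alone Abcc3 was called (LFC 0.33, edgeR FDR 0.0419) and Abcc4 was not (LFC 0.70, edgeR FDR 0.0526). The summed cholangiocyte markers were again higher with iron, at 545 to 760 normalized counts in NaCl/DEX livers, against 1062 to 1274 in FeSO4/DEX livers. Abcb11 had 12220, 12930 and 14620 normalized counts in NaCl/DEX livers, against 10910, 10570 and 10160 in FeSO4/DEX livers. Every FeSO4/DEX liver was lower than every NaCl/DEX liver, and this difference was not called either (LFC -0.33 ± 0.18 (SE), interval -0.71 to 0.05, edgeR FDR 0.151). The other 6 transporters had overlapping groups, with LFCs between -0.59 for Slco1a1 and 0.23 for Abcb4 and edgeR FDRs of 0.243 or more.

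Among these 6, Slc10a1 had 13750, 13400 and 14180 normalized counts with NaCl/DEX and 12240, 11260 and 14510 with FeSO4/DEX. The highest FeSO4/DEX mouse was also the highest of the 6 (LFC -0.12 ± 0.14, interval -0.415 to 0.17, edgeR FDR 0.505). Slco1a1 had 1134, 4764 and 3837 with NaCl/DEX and 1970, 1569 and 2917 with FeSO4/DEX. The FeSO4/DEX mice lay between the lowest and the other 2 NaCl/DEX mice (LFC -0.59 ± 0.43, interval -1.51 to 0.32, edgeR FDR 0.282). Slco1a4 had 4967, 2133 and 3809 normalized counts with NaCl/DEX and 2879, 4631 and 4550 with FeSO4/DEX, and the FeSO4/DEX mice lay inside the range of the others (LFC 0.145 ± 0.27, edgeR FDR 0.696). Slc22a7 had 483, 863 and 650 with NaCl/DEX and 949, 643 and 645 with FeSO4/DEX, with 1 FeSO4/DEX mouse above all others (LFC 0.165 ± 0.29, edgeR FDR 0.68). Of the canalicular exporters, Abcb4 had 4257, 5893 and 5025 normalized counts with NaCl/DEX and 6418, 5913 and 5517 with FeSO4/DEX, where 1 FeSO4/DEX mouse lay under the highest NaCl/DEX mouse (LFC 0.23 ± 0.16, edgeR FDR 0.243). Abcc2 had 18860, 16080 and 16490 with NaCl/DEX and 12540, 15300 and 16940 with FeSO4/DEX, where 1 FeSO4/DEX mouse lay above the lowest 2 NaCl/DEX mice (LFC -0.20 ± 0.17, edgeR FDR 0.357).

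Averaged over the mice with and without DEX, an effect computed after the results had been seen, FeSO4 lowered Slco1b2 (LFC -0.99 ± 0.16, edgeR FDR 8.17e-05) and Abcb11 (LFC -0.31 ± 0.13, edgeR FDR 0.0441). On the same average Abcc3 (LFC 0.43 ± 0.10, edgeR FDR 0.00224) and Abcc4 (LFC 0.69 ± 0.195 (SE), edgeR FDR 0.00699) were higher. That is 4 of 10 transporters, where 61.9% of all tested genes were called. Slc10a1 was not called (LFC -0.14 ± 0.10, edgeR FDR 0.231). The DEX effect averaged in the same way over mice with and without iron called 0 of 10 transporters, where 5.94% of all tested genes were, and Abcc2 had the lowest adjusted p (LFC 0.32 ± 0.12, edgeR FDR 0.142).

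**Figure D3:**
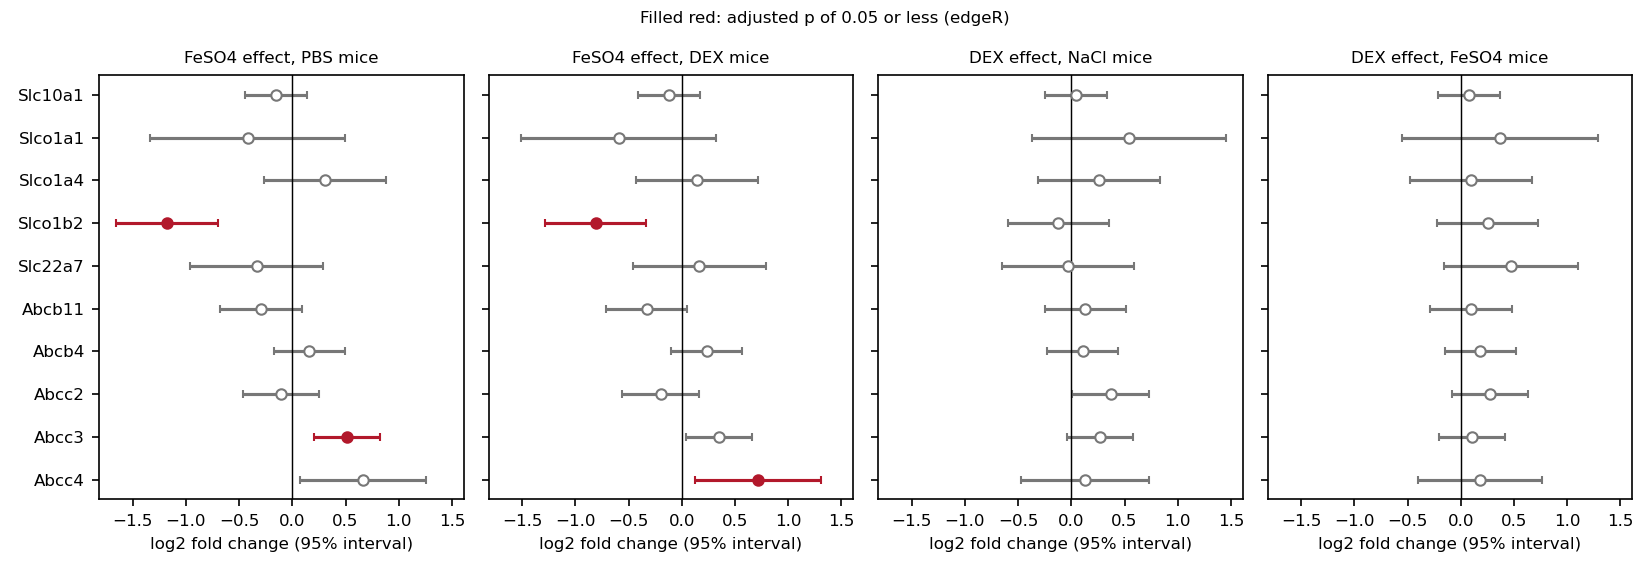
LFC (log2 axis) of the 10 transporters with its 95% interval for the FeSO4 effect in PBS and in DEX mice and the DEX effect in NaCl and in FeSO4 mice, each from 3 mice against 3, with filled red points where the edgeR FDR was 0.05 or less. Slco1b2 is called lower in both FeSO4 comparisons (LFC -1.18 and -0.81), and no transporter is called in either DEX comparison.

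The DEX effect was taken first in mice without iron (NaCl/DEX against NaCl/PBS). None of the 10 transporters was called, where 13.7% of all tested genes were, and 1 of the 10 had groups without overlap, where 37.9% of all tested genes did. That gene was Abcc2, the canalicular conjugate exporter, with 18860, 16080 and 16490 normalized counts in NaCl/DEX livers against 15410, 11840 and 12550 in NaCl/PBS livers. Every NaCl/DEX liver was higher than every NaCl/PBS liver, with an LFC of 0.37 ± 0.17 (SE, interval 0.01 to 0.73) that did not survive the adjustment (unadjusted p 0.0441 and edgeR FDR 0.172 from the same edgeR model). By unadjusted p it was the only one of the 10 under 0.05. Abcc3 had an LFC of 0.27 ± 0.15 (SE, edgeR FDR 0.264) with overlapping groups.

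Slco1a1 had the largest DEX LFC of the 10 in mice without iron, 0.54, and also the widest interval, from -0.37 to 1.45 (SE 0.43, edgeR FDR 0.46). Of its NaCl/DEX mice, mouse 1 lay below and the other 2 above all NaCl/PBS mice. The remaining 7 transporters had LFCs between -0.12 for Slco1b2 and 0.26 for Slco1a4. For Slc10a1 the interval from -0.25 to 0.34 was the narrowest of the 10.

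After FeSO4 (FeSO4/DEX against FeSO4/PBS), DEX called 0 of the 10 transporters and 0% of the 13857 tested genes with edgeR, where 900 genes had an unadjusted p under 0.05 and DESeq2 called 10 genes (5 higher and 5 lower), no transporter among them. None of the 10 had groups without overlap, against 9.30% of all tested genes. All 10 LFCs were above 0, between 0.08 for Slc10a1 and 0.47 for Slc22a7, with edgeR FDRs between 0.799 and 0.962, and all 10 intervals included 0. For Slco1b2 the LFC was 0.25 ± 0.22 (SE, interval -0.22 to 0.72), and leaving out the low mouse 1 of the FeSO4/PBS group brought it to -0.03. The common sign rested on that mouse: without it the LFCs of Abcb11 (-0.04), Abcb4 (-0.005), Abcc3 (-0.04) and Abcc4 (-0.06) also fell below 0, and those of the other 5 lay between 0.003 and 0.67. This comparison shares its FeSO4/PBS mice with the FeSO4 effect, so that the mouse enters both.

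Whether DEX acted differently with and without iron was tested as the difference between the DEX effects. It passed for none of the 10 transporters, where 6.18% of all tested genes were called. The differences lay between -0.17 for Slco1a1 and 0.50 for Slc22a7 on the log2 scale, and the smallest edgeR FDR was 0.539. For Slco1b2 the difference was 0.37 ± 0.31 (SE) with an interval from -0.30 to 1.04, and 0.075 without FeSO4/PBS mouse 1. This interval does not show that the FeSO4 effects with and without DEX were alike.

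The 10 transporters differed in how much they varied between mice of a group. In the NaCl/PBS and NaCl/DEX mice Slco1a1 varied most, with an SD of the log2 CPM (prior count of 2) of 0.65 and 1.12, where the median of all tested genes was 0.16 and 0.18. In the FeSO4/PBS mice Slco1b2 varied most (0.56, all genes 0.27), and in FeSO4/DEX livers Abcc4 did (0.58, all genes 0.20). Slc10a1 lay below the median of all tested genes in each of the 4 groups, between 0.04 and 0.23. Over the 12 mice, which share 4 group means, the levels of Slco1a1 and Slco1a4 ran against each other (Pearson r of log2 CPM -0.54, a description only). The mouse with the least Slco1a1, NaCl/DEX mouse 1 with 1134 normalized counts, had the most Slco1a4, 4967, and the mouse with the most Slco1a1, NaCl/DEX mouse 2 with 4764, had the least Slco1a4, 2133. The level of Slco1a1 per length thus ranged from 0.23 to 2.23 times that of Slco1a4 within 1 group. Of the distinct 100-base windows in the annotated transcripts of Slco1a1 and Slco1a4, 0.603% and 0.437% also occur in the other paralog or in Slco1a5. A window is as long as a read. Abcb4 shared 0.191% of its windows with other genes and the other 7 transporters none. Exons of 6 transporters overlap genes on the opposite strand, over 10.4% of the exon length in Abcc3 (Gm51871), 8.03% in Slc10a1 (Srsf5) and 6.76% or less in Slc22a7, Abcb11, Abcb4 and Abcc4. Whether reads were counted by strand is not given in the sources used here, and without strand such reads cannot be told apart.

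Among the pairs of transporters, Slco1b2 and Abcb11 had the highest correlation over the 12 mice (r 0.68), followed by Abcc3 and Abcc4 (0.65) and Slco1a4 and Abcc3 (0.64). The closest genes were sought among the tested genes with a symbol, leaving out the 10 transporters and all Rik and Gm genes. Those most like Slco1b2 over the 12 mice were Acbd5 (r 0.984), which encodes a peroxisome membrane protein, and Fndc3a (0.982). For Abcc3 they were Col14a1 (0.926) and Naa16 (0.921), for Abcc4 Rapgef1 (0.952) and Adgrf5 (0.948), and for Abcc2 the cytochrome P450 gene Cyp3a25 (0.938) and Rcbtb1 (0.915). For Slco1a4, C2cd2 (0.892) was among the closest. For Abcb11 they were Echdc1 (0.899) and St13 (0.867), and for Slc10a1 Pop5 (0.888) and Crym (0.854). For Abcb4 they were Tlcd4 (0.884) and Serpinb6b (0.882), for Slco1a1 Slc22a28 (0.847) and Oip5 (0.830), and for Slc22a7 Slc24a5 (0.833) and Atf5 (0.818). These are the highest of a great many correlations over 12 points each and describe these livers.

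The other genes of the pathway were taken from 5 lists, for FeSO4 without DEX, where 27.2% of all tested genes were called higher and 27.3% lower. With library size alone, fewer genes were called higher in 4 of the 5 lists, as given with each. The same held for all 13857 tested genes, of which 2285 were then called higher, against 3770 with TMM. The number called lower rose from 3783 to 5829. Of 30 tested other transporters of hepatocytes, 7 were called higher and 11 lower (4 higher with library size alone), with a median LFC of -0.16 beside -0.015 for all tested genes. Among genes with at least 100 normalized counts in the higher group, to which the named genes of these lists were limited, the largest rises were Slc16a1 (MCT1, a lactate carrier; LFC 2.69 ± 0.19, edgeR FDR 1.29e-07) and Abca1, which exports cholesterol to HDL (LFC 1.86 ± 0.12, edgeR FDR 4.9e-08). The largest falls were Slc10a5, an NTCP relative of unsettled substrate (LFC -2.28 ± 0.215, edgeR FDR 1.36e-06), and Slc17a3, an organic anion transporter (LFC -1.41 ± 0.13, edgeR FDR 1.11e-06).

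Of 15 tested genes that hold transporters at the canalicular membrane or flip its lipids, 2 were called higher and 7 lower (median LFC -0.03, and 1 higher with library size alone). Atp8b1, the canalicular phospholipid flippase FIC1, fell (LFC -1.285 ± 0.12 (SE), edgeR FDR 1.04e-06), as did Rdx, the radixin that anchors MRP2 to actin (LFC -1.25 ± 0.13, edgeR FDR 3.99e-06). Counts of Rdx mRNA fell from 4426 ± 740 to 1863 ± 123 normalized counts (SD, n = 3) while those of Abcc2 itself did not pass the test.

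Of 27 tested transcription factors, nuclear receptors and signals that are known to regulate these transporters, 6 were called higher and 13 lower (median LFC -0.24, and 3 higher with library size alone). Cebpb, an acute-phase transcription factor, rose (LFC 2.08 ± 0.17, edgeR FDR 3.54e-07), and so did Hnf4a, the hepatocyte factor that drives many liver genes (LFC 0.98 ± 0.11, edgeR FDR 6.87e-06). The largest falls were Nr1i3 (CAR, a xenobiotic receptor; LFC -2.28 ± 0.20, edgeR FDR 8.07e-07) and Nr0b2 (SHP, the repressor induced by the bile acid receptor FXR; LFC -2.215 ± 0.40 (SE), edgeR FDR 0.000394).

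Of 18 genes of bile acid synthesis and conjugation, 5 were called higher and 1 lower (median LFC 0.01). The one that fell was Cyp7a1, the rate-limiting enzyme of the classical pathway, from 6960 ± 589 to 107 ± 43.9 normalized counts (SD, n = 3; LFC -6.01 ± 0.49 (SE), edgeR FDR 3.56e-07). The largest rises were Hsd3b7, which acts on the sterol ring (LFC 1.31 ± 0.19, edgeR FDR 6.77e-05) and Cyp27a1, of the alternative pathway (LFC 0.56 ± 0.11, edgeR FDR 0.000682). The call of Cyp27a1 was lost with library size alone (LFC 0.24, edgeR FDR 0.0556) and on average over PBS and DEX mice (LFC 0.17, edgeR FDR 0.0749), and among DEX mice its FeSO4 LFC was -0.23 (edgeR FDR 0.109). The counts of this list depended on the scaling. With library size alone 1 of its genes was called higher and 8 lower, where 2285 and 5829 of all 13857 tested genes were.

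Of 18 targets of NRF2, the oxidative stress factor that is also known to induce Abcc2, Abcc3 and Abcc4, 15 were called higher and 0 lower, with a median LFC of 1.35 that is the same with Slc7a11 at its fitted value or at its lower bound. Without FeSO4/PBS mouse 1, 10 were called higher. Hmox1, the haem-degrading enzyme, had an LFC of 6.02 ± 0.26 (edgeR FDR 3.34e-09). Slc7a11, the cystine carrier, had 3 counts or fewer in every NaCl/PBS mouse and 226, 63 and 42 counts in FeSO4/PBS livers, a level at least 41.0-fold higher than 3 counts in 1 library (counting error only). Without FeSO4/PBS mouse 1, the highest of the 3, this bound was 21.0-fold. Beside these, the median LFC of Abcc3 (called) and Abcc4 (not called, edgeR FDR 0.0549) was 0.59, and that of the 5 uptake transporters -0.335. That of the 3 canalicular exporters was -0.11, which is the LFC of Abcc2 (not called, edgeR FDR 0.611). A part of NRF2 in the levels of the transporters was not tested.

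**Figure D4:**
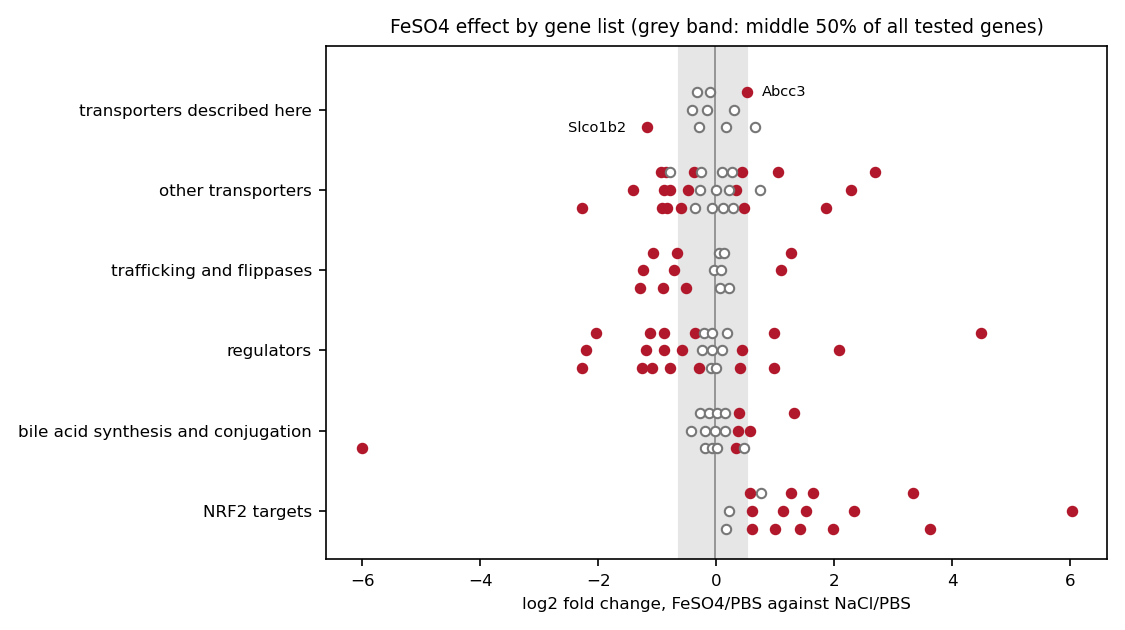
LFC (log2 axis) of FeSO4/PBS against NaCl/PBS for each tested gene of 6 lists, 1 point per gene, filled red where the edgeR FDR was 0.05 or less and spread vertically for legibility. The grey band is the middle 50% of all tested genes, which holds 8 of the 10 transporters, and Slc7a11, at the floor in NaCl/PBS livers, is not plotted.

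DEX in mice without iron, where 13.7% of all tested genes were called, called 1 other transporter higher and 1 lower, 0 and 2 of the trafficking genes, 5 and 4 of the regulators, 3 and 1 of the synthesis genes and 0 and 1 of the NRF2 targets. DEX after FeSO4 called none of them, as it called no gene at all with edgeR.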

How the data were processed

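Liver RNA of 12 mice was sequenced. Per the labels and the study's methods, the authors prepared stranded mRNA libraries, sequenced single-end reads, aligned them to mm39 with STAR 2.7.10b and deposited raw counts per gene, with no normalization. Which strand column was taken is not given in the sources used here. Of 55414 identifiers, 54749 have a symbol in the GENCODE vM39 annotation (GRCm39), from which positions, lengths and promoter sequences were read.

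From the counts, edgeR 4.0.16 (R 4.3.3; TMM, filterByExpr, glmQLFit and glmQLFTest, prior count 0.125) fitted 1 model with a term per group, and each contrast was adjusted by Benjamini-Hochberg over 13857 genes. The SE of an edgeR LFC was computed as the size of the LFC divided by the square root of the F statistic. The 95% intervals were built from these SEs with the t distribution. The main test was also run on simulated data with known changes, which were built from the means and spreads of the fitted data. Alternatives were DESeq2 1.42.0, its size factors, library size alone, no filter, a minimum of 10 counts throughout, replicate number as a blocking term, the libraries of a comparison alone, an LFC beyond 1, each mouse left out, and effects averaged over the other treatment, the last added after the data were seen, as were the bound of Slc7a11 without 1 mouse and the uptake sum without Slco1b2. Total counts were 16335651 to 23827340 per library, and intervals on fold changes rest on the spread between mice. No source says more than that the 3 mice of a group are separate animals.

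The 10 transporters and all lists were chosen with earlier results of these data known, and the lists give no independent support. Other genes were named by rule: of each list, up to 2 called genes with the largest rise and up to 2 with the largest fall, with a mean of at least 100 normalized counts in the higher group. For each transporter, the 2 genes with the highest correlation of log2 CPM (prior count 2) over the 12 mice were named as well. Genes without a symbol and Rik and Gm genes were left out of this search. Of the genes these rules name, 2 are not reported here. The symbols Tf and Slc9a3r1 were not matched. The replicate numbers do not pair the mice: same-numbered mice of different groups correlated between -0.092 and 0.129 (median -0.003, 18 pairs) after removal of group means. Replicates differed by more than sampling noise (chi-square per gene 16.8 to 81.4), so that no library was counted as a repeat.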

Additional observations from a re-analysis of the deposited data

Results flagged for a closer look

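Of 108 tested genes in the 5 lists around the 10 transporters, 13 (12%) had a DEX effect that differed between mice with and without FeSO4 by the test of the difference itself (edgeR FDR of the interaction), where 6.18% of all tested genes and none of the 10 transporters did. They were 4 of 30 other transporters, 5 of 27 regulators, 3 of 18 synthesis genes, 1 of 18 NRF2 targets and 0 of 15 trafficking genes. The 4 other transporters are described here, with Cebpb and Cyp27a1, which the report names. Slc10a2, Abcc10 and Abcc6 lie outside the rule for named genes and were chosen after their values were seen. Slc10a2 encodes ASBT, the sodium-dependent bile acid transporter of ileum and bile ducts. It had 662, 529 and 490 normalized counts in the NaCl/PBS mice, 2744, 2371 and 3745 in the NaCl/DEX mice, 1452, 1289 and 733 in the FeSO4/PBS mice and 952, 1215 and 1809 in the FeSO4/DEX mice. DEX raised it 5.27-fold in the mice without iron, without overlap (LFC 2.40, edgeR FDR 5.49e-05), whereas after FeSO4 the groups overlapped (LFC 0.19, edgeR FDR 0.919), and the difference of the LFCs was -2.205 ± 0.375 (SE, edgeR FDR 0.00319). Cebpb, the acute-phase factor, differed by -1.103 (edgeR FDR 0.0109), with a DEX LFC of 1.295 without iron and 0.19 after it. Its FeSO4/PBS mice, with 4591 to 4890 normalized counts, already lay above the NaCl/PBS (955 to 1366) and the NaCl/DEX mice (2685 to 2828). The FeSO4/DEX mice had 4568 to 7041. Cyp27a1, the sterol 27-hydroxylase, differed by -0.791 (edgeR FDR 0.00818), with DEX LFCs of 0.77 without iron and -0.02 after it. It had 7788 to 8510 normalized counts in NaCl/PBS and 13420 to 14530 in NaCl/DEX mice. In FeSO4/PBS mice it had 10840 to 12780 and in FeSO4/DEX mice 10920 to 12970. Slc17a3 differed by 0.848 (edgeR FDR 0.0124), with -0.43 and 0.42, and the call was lost without FeSO4/DEX replicate 3 (edgeR FDR 0.0512). Abcc10 differed by 0.73 (edgeR FDR 0.0431) and Abcc6, an MRP of the basolateral membrane, by 0.653 (edgeR FDR 0.0482). Both calls were lost with DESeq2 size factors (edgeR FDR 0.0536 and 0.0646) and with the replicate block (edgeR FDR 0.0787 and 0.0757), each in 10 of the 12 fits without 1 mouse (highest edgeR FDR 0.135 and 0.146), and that of Abcc10 with no filter (edgeR FDR 0.103).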

How the results depend on the processing

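Slco1b2 was called lower under every alternative of both FeSO4 comparisons other than the threshold of an LFC beyond 1, which it passed only without DEX; with single mice left out its LFC ranged from -1.379 to -0.92 without DEX and from -0.928 to -0.701 with DEX. Of the FeSO4 effect without DEX, 1 transporter was called higher; the count was 2 with DESeq2, DESeq2 size factors, no filter, the libraries of the comparison alone and the average over PBS and DEX mice, 0 with library size alone and an LFC beyond 1, and 1 to 2 with single mice left out. The count called lower, 1, was 4 with library size alone (Slc10a1, Abcb11 and Abcc2 added) and 2 with no filter and with the average. With single mice left out it was 1 to 2 (2, with Abcb11, without NaCl/PBS or FeSO4/PBS replicate 2). Of all 13857 tested genes the main fit called 3770 higher and 3783 lower, and library size alone 2285 and 5829. The average called 4274 and 4298, and no filter 3877 and 3866 of 25013 genes. DESeq2 called 3981 of 13855 genes higher, its size factors 3915 of 13857 and the libraries of the comparison alone 3330 of 13440. With DEX, the count called higher, 1 (Abcc4), was 0 with DESeq2 size factors, library size alone, 10 counts in every library, the replicate block and an LFC beyond 1, and 0 to 1 with single mice left out; with the libraries of the comparison alone it stayed at 1 with Abcc3 in place of Abcc4. The count called lower, 1, was 2 with library size alone, no filter and the libraries of the comparison alone, and 0 with an LFC beyond 1. With single mice left out it was 1 to 2 (2 without NaCl/DEX replicate 1). Of all 13857 tested genes library size alone called 2151 higher and 4146 lower, against 3103 and 2902 in the main fit. No filter called 3136 and 3025 of 25013 genes, and the libraries of the comparison alone 3065 and 3043 of 12993. The DEX effect without iron called 1 transporter higher (Slco1a1, LFC 0.55) with no filter, where 1129 of 25013 genes were called higher. The replicate numbers were not taken as pairs, and the block changed no other call of the 10 transporters. Signs turned for uncalled values. With library size alone, which moves the median LFC of all genes from -0.015 to -0.336 for the FeSO4 effect, they turned for the FeSO4 effect without DEX in Slco1a4 (-0.012) and Abcb4 (-0.153), with DEX in Slco1a4 (-0.056) and Slc22a7 (-0.027), for DEX without iron in Slc10a1 (-0.111), Abcb11 (-0.022), Abcb4 (-0.043) and Abcc4 (-0.024), and for the difference of the DEX effects in Abcb11 (0.089) and Abcc2 (0.022). With the average over NaCl and FeSO4 mice they turned for DEX in Slco1b2 (0.065) and Slc22a7 (0.221), with the block in Slc22a7 (0.001), and with DESeq2 and with its size factors for the difference in Slc10a1 (-0.007 in both). With single mice left out, uncalled LFCs spanned 0 as follows. For FeSO4 without DEX, Slc22a7 ranged from -0.555 to 0.083 and Abcc2 from -0.223 to 0.06; with DEX, Slco1a4 from -0.13 to 0.433 and Slc22a7 from -0.051 to 0.394. For DEX without iron, Slc10a1 ranged from -0.015 to 0.114, Slco1a4 from -0.027 to 0.535, Slc22a7 from -0.26 to 0.399, Abcb11 from -0.033 to 0.252 and Abcb4 from -0.014 to 0.22. For DEX after FeSO4, Slc10a1 ranged from -0.043 to 0.207, Slco1a4 from -0.035 to 0.296, Slco1b2 from -0.026 to 0.452, Abcb11 from -0.038 to 0.304, Abcb4 from -0.005 to 0.298, Abcc3 from -0.039 to 0.215 and Abcc4 from -0.182 to 0.407. For the difference of the DEX effects, Slc10a1 ranged from -0.106 to 0.162, Slco1a1 from -0.583 to 0.208, Slco1a4 from -0.439 to 0.123, Abcb11 from -0.193 to 0.168, Abcb4 from -0.135 to 0.195, Abcc2 from -0.298 to 0.022 and Abcc4 from -0.313 to 0.276. Where a call changed, the cause was not tested.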
